A study of Mus musculus with 6 samples.

Results

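The 9 genes described here encode subunits of the dystrophin glycoprotein complex: Dmd (dystrophin), Utrn (utrophin), Dag1 (dystroglycan), the sarcoglycans Sgca, Sgcb, Sgcd and Sgce, Sntb1 (beta-1-syntrophin) and Dtna (alpha-dystrobrevin). They were taken by gene name from a list drawn up with earlier results of these data known. All 9 were found among the 54532 genes of the count table, and all 9 passed the filter on low counts, which kept 14679 genes. RNA was sequenced from primary myoblasts, the proliferating muscle precursor cells, taken from hind-limb muscle of 3-week-old mice with dispase and collagenase and collected on day 2 of culture with FGF at 10 ug/ml. There were 3 WT libraries and 3 libraries labelled eIF5A-KO. In the study the knockout mice carry floxed eIF5A alleles and a tamoxifen-inducible Cre driven by Pax7. This Cre acts in satellite cells and the myoblasts they give rise to. The study's results text gives the WT controls as mice with the Cre and no floxed alleles. A figure legend of the study gives them as mice with floxed alleles and no Cre. Which of these gave the sequenced WT cells is not stated in the labels. Whether libraries of a group came from separate animals is not stated either, so p-values measure only the spread between these libraries.

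The complex spans the muscle membrane. Dystroglycan binds laminin and other matrix proteins outside the cell, dystrophin binds dystroglycan on the inner side and ties it to actin, the sarcoglycans hold dystroglycan and dystrophin together, and syntrophins and dystrobrevins attach signalling proteins to dystrophin. Utrophin is a paralog that takes the place of dystrophin in embryonic muscle, at neuromuscular junctions and in many non-muscle cells. Loss of dystrophin or of a sarcoglycan causes muscular dystrophy, and in myogenesis the muscle-specific subunits are known to rise as myoblasts fuse into myotubes.

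On GRCm38, the build of the count table, Dmd occupies bases 82948870 to 85206141 of chromosome X, plus strand, and its longest transcript has 79 exons in GENCODE M21. The count of Dmd sums reads over the whole gene, which makes its transcripts from different start sites inseparable. In the annotation 1 coding transcript starts at 82948903 and the other 2 at 85048413, toward the 3′ end, where a short dystrophin of many non-muscle tissues begins. The 250 bases before the nearest RefSeq start of each kind are therefore shown, with those before the starts of Dag1, the most abundant of the 9 genes, and of Sgca, a sarcoglycan specific to striated muscle. They are RefSeq sequences on GRCm38.p6, written 5′ to 3′ on the strand of the gene, and capitals mark E-boxes, the letters CANNTG to which myogenic regulators and many other factors bind.
Dmd, upstream start, chrX:82948620-82948869, plus strand: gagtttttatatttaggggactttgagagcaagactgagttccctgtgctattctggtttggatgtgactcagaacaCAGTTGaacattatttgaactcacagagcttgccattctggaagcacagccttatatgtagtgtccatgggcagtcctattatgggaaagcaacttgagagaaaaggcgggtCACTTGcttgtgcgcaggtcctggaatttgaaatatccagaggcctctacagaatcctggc
Dmd, internal start, chrX:85048045-85048294, plus strand: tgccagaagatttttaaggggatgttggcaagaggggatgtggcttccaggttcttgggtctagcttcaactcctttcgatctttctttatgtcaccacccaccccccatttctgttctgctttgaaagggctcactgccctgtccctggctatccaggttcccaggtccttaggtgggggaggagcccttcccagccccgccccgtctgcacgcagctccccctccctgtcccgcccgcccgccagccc
Sgca, chr11:94976328-94976577, minus strand: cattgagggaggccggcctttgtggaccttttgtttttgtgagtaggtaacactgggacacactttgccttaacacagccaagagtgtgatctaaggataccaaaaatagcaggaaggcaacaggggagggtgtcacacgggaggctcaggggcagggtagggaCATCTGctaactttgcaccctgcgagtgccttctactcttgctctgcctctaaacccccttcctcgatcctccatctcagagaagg
Dag1, chr9:108263959-108264208, minus strand: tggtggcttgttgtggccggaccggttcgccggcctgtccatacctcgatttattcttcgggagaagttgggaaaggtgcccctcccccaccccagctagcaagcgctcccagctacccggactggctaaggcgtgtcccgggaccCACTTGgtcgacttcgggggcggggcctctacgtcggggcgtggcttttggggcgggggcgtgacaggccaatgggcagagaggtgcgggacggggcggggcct

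The window before the upstream Dmd start had 2 E-boxes, and that before the internal start had 0. The internal window instead had 3 matches to the GC box GGGCGG, counted on both strands, and the upstream window had 0. Sgca had 1 E-box and 0 GC boxes, and Dag1 had 1 E-box and 3 GC boxes. Of all 32851 RefSeq promoter windows of 250 bases, 66.2% held an E-box, so its presence is common, and 32.7% held a GC box. The G and C share was 45.2% before the upstream Dmd start, 60% before the internal start, 52.8% for Sgca and 67.6% for Dag1, against a median of 52.4% over all windows. These matches describe the letters only, and the counts hold no measure of which start was used. RefSeq promoter entries were matched for 6 of the 9 genes, and Sgce, Sntb1 and Dtna were not matched.

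Utrn lies on chromosome 10 from 12382188 to 12869365, Dag1 on chromosome 9 from 108204634 to 108263958 and Sgca on chromosome 11 from 94962791 to 94976327, all on the minus strand. Sgcb lies on chromosome 5 from 73632749 to 73647790, Sgcd on chromosome 11 from 46896253 to 47988969, Sgce on chromosome 6 from 4674350 to 4747207 and Sntb1 on chromosome 15 from 55636388 to 55906949, also on the minus strand. Dtna is on chromosome 18, plus strand, between 23415135 and 23659715. No transcript of another gene matched any of the 9 genes with at least 90% identity along 200 bases or more. The longest alignment between the paralogs Dmd and Utrn covered 1939 bases at 71.2% identity. Dtna shared 0.532% of its exon bases with another gene, and the others shared none.

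The libraries held 16281216 to 17734551 reads counted on genes. Eif5a, which the knockout targets, stood at 1603, 986 and 1238 CPM (read counts relative to library size, after TMM scaling) in WT and at 1364, 1459 and 1059 CPM in the labelled libraries, which is no reduction (log2 fold change 0.02 ± 0.23 SE, adjusted p = 0.993 by edgeR, n = 3 per group). Directions below are therefore between sets of libraries as labelled. The study checked the knockout in satellite cells by RT-qPCR and by immunostaining of eIF5A, and reports that it was established. Counts here were summed over the whole gene, so a deleted part of Eif5a was not looked for. The cultures were mixed, since the endothelial gene Cdh5 stood at 57.1 to 194.1 FPKM (fragments scaled by gene length and library depth). Of myogenic markers, Des stood at 50.1 to 115.9 FPKM and the satellite cell gene Pax7 at 1.41 to 8.73 FPKM. Of marker lists, all 12 tested genes of differentiating muscle had a negative log2 fold change, 6 of them at an unadjusted p under 0.05 (4.02% of all tested genes were lower at that threshold), and their summed FPKM was 170.3 to 331.8 in WT and 115.1 to 193.7 in the labelled libraries. Summed myogenic progenitor markers spanned 209.9 to 450.0 FPKM and 174.2 to 331.9 FPKM, and fibroblast markers 811.9 to 1133 and 853.8 to 1000 FPKM. Of 7 tested progenitor markers 5 had a negative log2 fold change and 1, Pax7, an unadjusted p under 0.05 (log2 fold change -1.49, unadjusted p = 0.0069, adjusted p = 0.484 by edgeR, and 5.39e-07 with no filter and 0.0278 without WT replicate 1). Without WT replicate 2 the log2 fold change of Pax7 was -0.84. With no filter its standard error was 0.239, against 0.431 in the main fit. Of 9 fibroblast markers 6 and of 8 macrophage markers 2 had a negative log2 fold change, and 1 of each list was higher at an unadjusted p under 0.05. Endothelial markers summed to 300.1 to 625.3 FPKM in WT and 546.5 to 757.2 in the labelled libraries, mural markers to 91.5 to 142.9 and 156.5 to 181.3, Schwann markers to 57.6 to 84.5 and 92.5 to 104.2, and macrophage markers to 39.8 to 91.1 and 39.4 to 117.3. All 9 tested mural markers had positive log2 fold changes, 4 with an unadjusted p under 0.05 and 1, Myh11, with an adjusted p of 0.0486 by edgeR (log2 fold change 1.51; the call held in 6 of 17 alternatives and was lost in 11, with an adjusted p of up to 0.315), as had all 8 endothelial markers (1 unadjusted) and all 7 Schwann markers (2 unadjusted), where 2.74% of all tested genes were higher at the unadjusted threshold. The part of this makeup in the levels below was not tested, and in bulk RNA fewer cells of a type and less RNA per cell cannot be told apart.

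None of the 9 complex genes was called different between the labelled eIF5A-KO and WT libraries. By edgeR's quasi-likelihood test 0 of 9 had an adjusted p under 0.05, where 0.0204% of all tested genes did, and 0 of 9 had an unadjusted p under 0.05, where 6.76% did (2.74% higher and 4.02% lower). A fold over 2 with an unadjusted p under 0.05 was likewise found for 0 of 9, and for 1.69% of all tested genes. DESeq2 and limma-voom also called 0 of 9. With so few genes, a count of 0 is close to the background share. The libraries of the 2 groups overlapped for all 9 genes, whereas 12.5% of all tested genes had no overlap. Of the 9 log2 fold changes 3 were positive and 6 negative, from -0.22 to 0.21, and their median of -0.08 lay beside -0.01 over all tested genes. The median size of the change was 0.13 for the complex and 0.18 over all tested genes, both on the log2 scale, while the median standard error was 0.30 for the complex and 0.24 over all.

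**Figure D1:**
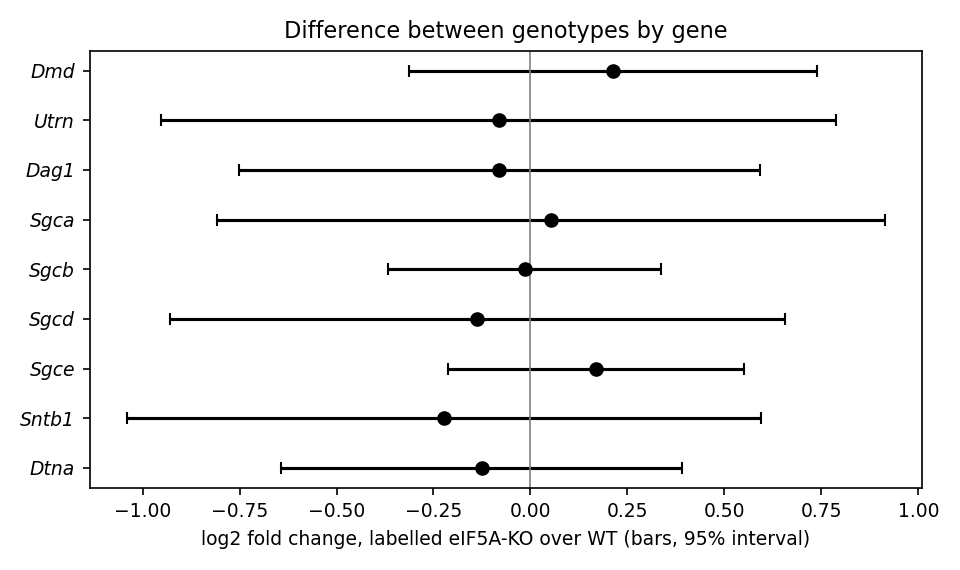
Log2 fold change of each complex gene (x axis, labelled eIF5A-KO over WT, 3 libraries per group) with its 95% interval from the edgeR fit. All 9 intervals cross 0, and that of Sgcb, from -0.37 to 0.34, is the narrowest while those of Utrn, Sgca and Sntb1 are the widest.

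Dmd, which encodes dystrophin, stood at 10.9, 19.7 and 13.6 CPM in WT libraries 1 to 3 and at 16.6, 16.3 and 18.5 CPM in the labelled eIF5A-KO libraries 1 to 3. All 3 labelled libraries lay inside the WT range, above WT replicates 1 and 3 and below WT replicate 2. The log2 fold change was 0.21 ± 0.23 (SE, adjusted p = 0.936 by edgeR), and the 95% interval of the fold ran from 0.805 to 1.67. This value rested on single libraries: it was 0.48 without WT replicate 2 (unadjusted p = 0.0506, adjusted p = 0.566 by edgeR) and 0.05 without WT replicate 1.

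Utrn, for utrophin, spread more. It stood at 48.0, 155.0 and 71.4 CPM in WT and at 68.0, 78.8 and 112.5 CPM in the labelled libraries, so that the highest and lowest libraries were both WT and differed by 3.23-fold. Between groups its log2 fold change was -0.08 ± 0.39 (SE, adjusted p = 0.986 by edgeR), with an interval of the fold from 0.516 to 1.73. Without WT replicate 2 it turned to 0.53 (adjusted p = 0.587 by edgeR), and without WT replicate 1 it was -0.38.

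Since dystrophin and utrophin fill the same place in the complex, their ratio was also compared. On the FPKM scale Dmd stood at 0.164, 0.0915 and 0.137 of Utrn in WT and at 0.175, 0.149 and 0.119 of Utrn in the labelled libraries. Utrn was thus the more abundant transcript per length in all 6 libraries, and the ratios of the groups overlapped. The log2 ratio differed by 0.20 (exact two-sided permutation test, p = 0.6, adjusted over the 2 ratios tested 0.7), in a design that cannot go below p = 0.1.

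Dag1, whose product is cut into the alpha subunit that binds laminin and the beta subunit that binds dystrophin, stood at 182.8, 446.4 and 243.6 CPM in WT and at 285.3, 293.1 and 247.4 CPM in the labelled libraries. As with Dmd, the labelled libraries clustered inside a wide WT range: the WT mean was 291.0 ± 138.0 CPM and the labelled mean 275.3 ± 24.5 CPM (SD, n = 3 each). This gave a log2 fold change of -0.08 ± 0.30 (SE, adjusted p = 0.983 by edgeR), with an interval of the fold from 0.594 to 1.51, and it turned to 0.37 without WT replicate 2 (adjusted p = 0.615 by edgeR).

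Among the sarcoglycans, Sgcb (beta-sarcoglycan, part of the core on which the others assemble) was the steadiest. It stood at 56.9, 59.9 and 51.7 CPM in WT and at 56.8, 54.8 and 55.0 CPM in the labelled libraries, a spread of 1.16-fold between the highest and lowest library. Its log2 fold change was -0.02 ± 0.16 (SE, adjusted p = 0.992 by edgeR), and the interval of the fold, from 0.776 to 1.26, was the narrowest of the 9 genes.

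Sgce (epsilon-sarcoglycan, an imprinted paralog of Sgca found in many tissues) stood at 37.9, 30.2 and 35.9 CPM in WT and at 35.8, 41.3 and 39.9 CPM in the labelled libraries. Its lowest library was WT replicate 2, the one where Dmd, Utrn and Dag1 were highest. Between groups the log2 fold change was 0.17 ± 0.17 (SE, adjusted p = 0.926 by edgeR), with an interval of the fold from 0.863 to 1.46, and it was 0.08 without WT replicate 2.

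Sgca (alpha-sarcoglycan, of striated muscle) stood at 4.91, 10.6 and 7.56 CPM in WT and at 12.5, 6.51 and 4.99 CPM in the labelled libraries. Its highest library was thus labelled eIF5A-KO replicate 1 and its lowest WT replicate 1, with labelled replicate 3 close to the latter. The log2 fold change of 0.05 ± 0.38 (SE, adjusted p = 0.988 by edgeR) had an interval of the fold from 0.572 to 1.88, the highest upper bound of the 9 genes. Left without labelled replicate 1, it turned to -0.40, and without WT replicate 2 it was 0.35.

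Sgcd (delta-sarcoglycan, the other core subunit) rested on few reads, with counts of 81, 59 and 40 in WT and of 38, 65 and 62 in the labelled libraries. These equal 5.24, 3.13 and 2.36 CPM against 2.33, 3.85 and 3.52 CPM, with WT replicate 1 the highest. At a mean of this size counting alone gives an SD of 13.2% per library. The log2 fold change was -0.14 ± 0.35 (SE, adjusted p = 0.976 by edgeR), with an interval of the fold from 0.525 to 1.58, and it turned to 0.23 without WT replicate 1.

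Set against each other per length, the paralogs Sgca and Sgce gave FPKM ratios of 0.792, 2.14 and 1.29 in WT and of 2.13, 0.965 and 0.765 in the labelled libraries. Sgca was the higher of the pair in 3 of 6 libraries, WT replicates 2 and 3 and labelled replicate 1. The log2 ratio differed by -0.16 between groups (exact two-sided permutation test, p = 0.7, adjusted 0.7).

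On the cytoplasmic side, Sntb1 (an adaptor with a PDZ domain) was counted at 39, 91 and 36 reads in WT and at 34, 46 and 58 reads in the labelled libraries, which are 2.52, 4.83 and 2.13 CPM and 2.08, 2.72 and 3.29 CPM. WT replicate 2 stood above the rest. Its log2 fold change was -0.22 ± 0.36 (SE, adjusted p = 0.959 by edgeR), with an interval of the fold from 0.487 to 1.51, and it turned to 0.21 without that library.

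Dtna, which binds syntrophins and dystrophin, stood at 9.50, 15.6 and 13.5 CPM in WT and at 11.8, 10.4 and 13.3 CPM in the labelled libraries. Here too WT replicates 1 and 2 were the lowest and the highest. The log2 fold change was -0.13 ± 0.23 (SE, adjusted p = 0.966 by edgeR), with an interval of the fold from 0.641 to 1.31, and it was 0.04 without WT replicate 2.

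Per length, the genes fell into 4 tiers. Dag1 was the most abundant at 44.2 ± 13.9 FPKM (mean ± SD, n = 6 libraries of both groups), above 91.2% of tested genes, and Sgcb followed at 13.7 ± 0.646 FPKM. Utrn at 5.16 ± 2.24, Sgca at 4.48 ± 1.76 and Sgce at 3.44 ± 0.370 FPKM formed the third tier, and their ranges overlapped. Dtna at 0.723 ± 0.132, Dmd at 0.665 ± 0.136, Sntb1 at 0.545 ± 0.192 and Sgcd at 0.408 ± 0.129 FPKM formed the lowest, again with overlapping ranges and each above at most 15.2% of tested genes. The ranges of neighbours did not overlap at the steps from Dag1 to Sgcb, from Sgcb to Utrn and from Sgce to Dtna. The place of Dmd in this order holds for the length of the whole gene, 23801 bases, by which its FPKM was divided, and the share of its shorter transcripts was not measured.

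**Figure D2:**
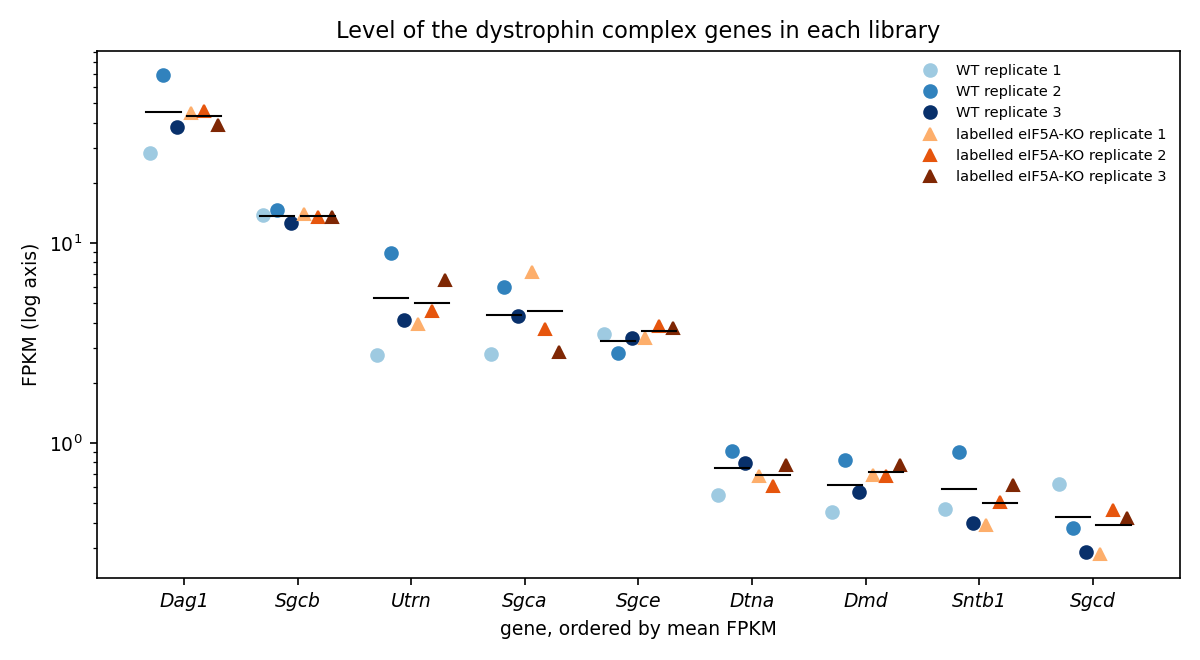
FPKM of each complex gene (log axis) in the 3 WT libraries (circles) and the 3 libraries labelled eIF5A-KO (triangles), with the mean of each group as a black line. Dag1 lies between 28.3 and 69.5 FPKM in the 6 libraries and Sgcd between 0.279 and 0.624 FPKM, and the groups overlap for every gene.

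Libraries of a single group, WT above all, differed widely in most of the 9 genes. WT replicate 2 was the highest library for 6 of the 9 genes (Dmd, Utrn, Dag1, Sgcb, Sntb1 and Dtna), against 24.6% of all tested genes. WT replicate 1 was the lowest for 5 of the 9 (Dmd, Utrn, Dag1, Sgca and Dtna), against 27.9% of all tested genes. Among the 2351 tested genes longer than 8000 bases, a bin chosen after the data were seen, WT replicate 2 was highest for 55.7% and WT replicate 1 lowest for 45.1%. The median log2 deviation of these long genes from their mean over the libraries was -0.19 in WT replicate 1, 0.29 in WT replicate 2 and 0.01 in WT replicate 3, and -0.12, -0.05 and 0.13 in the labelled libraries. In the 965 genes of up to 1000 bases the order was the opposite, at 0.41 in WT replicate 1 and -0.31 in WT replicate 2. WT replicate 2 was nevertheless highest for Myog, of 1495 bases, and for the other listed markers of differentiating muscle. Their part in the values of this library was not tested.

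Dmd at 23801 bases, Utrn at 17108 bases and Dtna at 16930 bases are the longest of the 9 genes by the length in the FPKM table. Dmd deviated by -0.52 in WT replicate 1 and by 0.33 in WT replicate 2 on the log2 scale, and by -0.32 and 0.04 from the median of its own length bin. Utrn kept more of its deviation, at -0.59 and 0.62 from its bin, and Dag1, only 6357 bases long, deviated by -0.53 and 0.62 from its bin. Sgce at 10612 bases went the other way, at 0.24 and -0.56. In a fit that takes out each library's trend with gene length, an alternative chosen after the data were seen, the standard error of Dmd went from 0.23 to 0.16, that of Utrn from 0.39 to 0.24 and that of Sgce from 0.17 to 0.21, and the log2 fold change of Dmd was 0.33 (unadjusted p = 0.0671, adjusted p = 0.658 by edgeR). WT replicate 1 also had the largest mitochondrial share, 5.75% of counts against 2.11% to 3.50% in the other libraries. Why libraries differed by gene length was not tested.

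**Figure D3:**
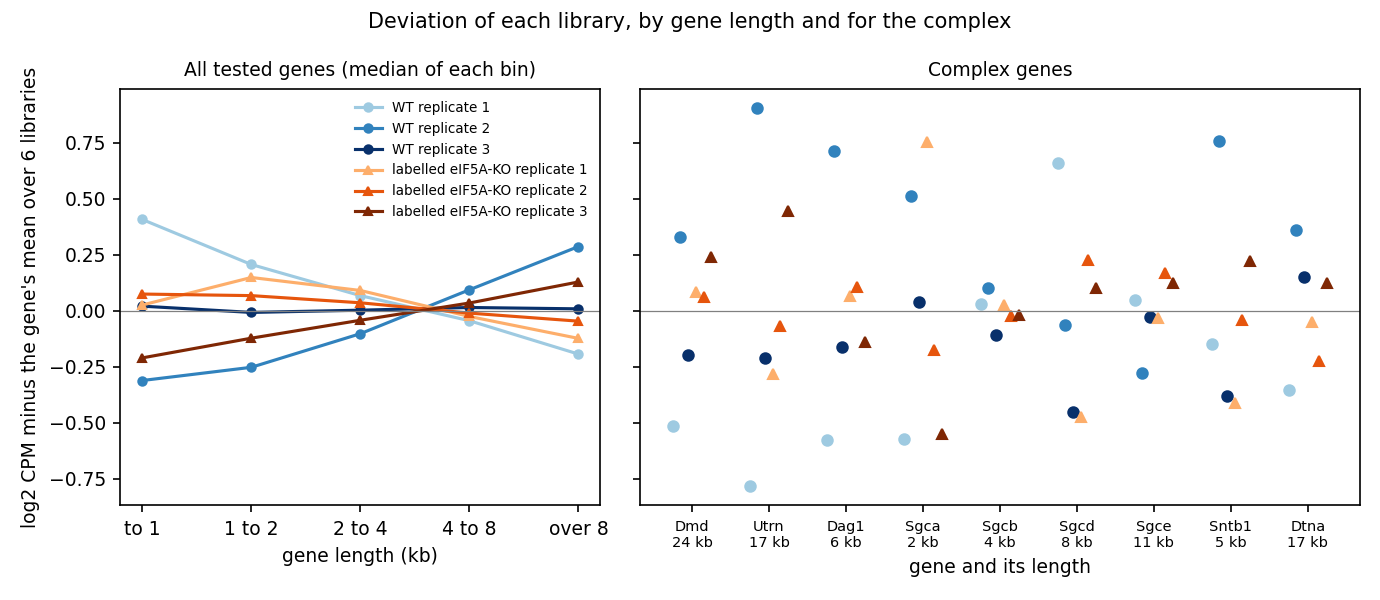
Deviation of each library, as log2 CPM minus the gene's mean over the 6 libraries: on the left the median over tested genes in 5 bins of gene length, on the right each complex gene with its length. In the longest bin WT replicate 2 is at 0.29 and WT replicate 1 at -0.19, and Dmd, Utrn and Dag1 lie on the same sides in these libraries.

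Across the 6 libraries, Pearson's r of log2 CPM was from 0.56 to 0.89 over the 10 pairs of Dmd, Utrn, Dag1, Sntb1 and Dtna, a set chosen after the values were seen. The closest pair was Dmd and Utrn (r = 0.89, Spearman's rho = 0.83, n = 6, and r = 0.97 without WT replicates 1 and 3, the libraries farthest from the median of Dmd). For several of the other pairs the value rested on the outermost libraries. Without the 2 libraries farthest from the median of the first gene of a pair, r was 0.31 for Utrn and Dtna, 0.02 for Sntb1 and Dtna, -0.17 for Dag1 and Sntb1, -0.43 for Utrn and Dag1 and -0.96 for Dag1 and Dtna. It was 0.57 for Dmd and Dag1, 0.91 for Dmd and Sntb1, 0.94 for Utrn and Sntb1 and 0.97 for Dmd and Dtna. Sgca ran opposite to Sgcd (r = -0.75, rho = -0.89, and -0.78 without labelled replicate 1 and WT replicate 2). Over all 36 pairs 24 values were positive. All points share the same libraries and the length trend, and these values are descriptions.

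Of the 10661 protein-coding genes with a mean of at least 5 CPM, those most like Dmd over the 6 libraries were Sgsm2 (r = 0.9934), Zfhx3 (r = 0.9888) and Iqgap1 (r = 0.9886). For Utrn they were Elmsan1 (r = 0.9979), Zfp609 (r = 0.9961) and Peak1 (r = 0.9943). Sgca was most like Acad10 (r = 0.9846), Axin1 (r = 0.9809) and Rgmb (r = 0.9754), and Sgce most like Fam216a (r = 0.9711), Kars (r = 0.9696) and Sap18b (r = 0.96). The rank correlations of these 12 genes were between 0.89 and 1. Each is the highest value found in a search over many genes with 6 points, and no test was made.

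The other subunits of the complex gave 0 of 5 tested genes with an adjusted p under 0.05 and 2 with an unadjusted p under 0.05 (6.76% of all tested genes had one), with a median log2 fold change of -0.22. Drp2, a short relative of dystrophin known from Schwann cells, stood at 21.4, 65.2 and 38.5 CPM in WT and at 23.3, 19.5 and 19.1 CPM in the labelled libraries. WT replicates 2 and 3 lay above all labelled libraries, and WT replicate 1 lay among them. Its log2 fold change was -1.01 ± 0.34 (SE, unadjusted p = 0.0159, adjusted p = 0.56 by edgeR), and -0.53 without WT replicate 2. Its adjusted p was 0.0419 without WT replicate 1 and 0.00309 in the edgeR fit with no filter.

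For Sspn (sarcospan, a membrane protein bound to the sarcoglycans) the log2 fold change was -0.28 (adjusted p = 0.888 by edgeR), and -0.06 without WT replicate 2. Sgcz (zeta-sarcoglycan) had no count in any library and was among the 4 genes of this list that were not tested.

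Of the enzymes that build the laminin-binding glycan on dystroglycan, 17 of 18 were tested, 7 with a positive and 10 with a negative log2 fold change, and 0 had an adjusted p under 0.05. B3galnt2, which adds a sugar of that glycan, was the only one with an unadjusted p under 0.05 (6.76% of all tested genes had one): it stood at 33.9, 38.7 and 34.4 CPM in WT and at 26.1, 27.8 and 28.5 CPM in the labelled libraries. These did not overlap, and the log2 fold change was -0.37 ± 0.16 (SE, unadjusted p = 0.0437, adjusted p = 0.715 by edgeR). The median of the list was -0.02.

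Among extracellular ligands, 8 of 9 were tested, 0 had an adjusted p under 0.05 and 2 had an unadjusted p under 0.05, both higher (2.74% of all tested genes were), with a median log2 fold change of 0.21. Bgn (biglycan, a small proteoglycan of the matrix that binds dystroglycan and sarcoglycans) stood at 865, 816 and 872 CPM in WT and at 1615, 1602 and 1293 CPM in the labelled libraries. All labelled libraries lay above all WT libraries, with a log2 fold change of 0.82 ± 0.19 (SE, unadjusted p = 0.00146, adjusted p = 0.362 by edgeR). With DESeq2 the adjusted p of Bgn was 0.00222, and with edgeR and no filter it was 0.0446, so its call depends on the tool and filter. Summed mural markers and summed Schwann markers were also above WT in every labelled library, as given above, and their part in it was not tested. Egflam (pikachurin, a matrix ligand of dystroglycan) was the other one, with 2.20, 3.71 and 2.24 CPM in WT and 5.57, 4.32 and 7.26 CPM in the labelled libraries (log2 fold change 1.04 ± 0.32 SE, adjusted p = 0.495 by edgeR), and it is named after its values were seen. Slit2 and Lama4 had log2 fold changes of 0.40 (adjusted p = 0.819) and 0.22 (adjusted p = 0.935 by edgeR), and Lama4 was at -0.004 without WT replicate 1.

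Of cytoplasmic partners 15 of 19 were tested, with 0 at an adjusted p under 0.05 and 1 lower at an unadjusted p under 0.05 (4.02% of all tested genes were), and a median of -0.02. This was Sync (syncoilin, an intermediate filament protein that binds alpha-dystrobrevin), at 3.49, 11.4 and 5.08 CPM in WT and 3.12, 2.25 and 2.04 CPM in the labelled libraries (log2 fold change -1.39 ± 0.43 SE, unadjusted p = 0.00926, adjusted p = 0.498 by edgeR, and 0.0042 with no filter). WT replicate 2 stood well above the other libraries for Sync, which is named after its values were seen. Dtnbp1 (dysbindin), Mast2 and Pgm5 had log2 fold changes of 0.30, 0.22 and -0.19, each with an adjusted p of at least 0.884 by edgeR. Without WT replicate 1 Mast2 was at 0.005, and without WT replicate 2 Dtnbp1 was at 0.15 and Pgm5 at -0.006. Nos1, the neuronal nitric oxide synthase that syntrophin anchors in muscle, did not pass the filter.

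All 12 genes of other laminin receptors and membrane repair were tested, 6 with a positive and 6 with a negative log2 fold change, 0 had an adjusted p under 0.05 and 1, Cavin4, had an unadjusted p under 0.05 (6.76% of all tested genes had one). Cavin4, a muscle-specific coat protein of caveolae, stood at 6.92, 12.04 and 7.21 CPM in WT and at 3.49, 2.19 and 1.42 CPM in the labelled libraries. All labelled libraries lay below all WT libraries, with a log2 fold change of -1.84 ± 0.37 (SE, unadjusted p = 0.000658, adjusted p = 0.321 by edgeR, 0.000783 with DESeq2 and 3.36e-06 by edgeR with no filter). Markers of differentiating muscle, among them Myog at 14.4, 76.3 and 32.3 CPM in WT and 8.93, 5.09 and 2.10 CPM in the labelled libraries (adjusted p = 0.362 by edgeR), had negative log2 fold changes in the same comparison. Of the 12 tested, 3 had no overlap between groups (12.5% of all tested genes had none), 0 had an adjusted p under 0.05 by edgeR and 6 were lower at an unadjusted p under 0.05 (4.02% of all tested genes were), and their part in the value of Cavin4 was not tested. In the edgeR fit with no filter the adjusted p was 7.32e-27 for Myog, 0.000124 for Actc1 and 1.93e-05 for Ttn. That fit drew standard errors together: Myog went from 0.635 to 0.25, Ttn from 0.546 to 0.284 and Sgcb from 0.156 to 0.221. Its p-values thus follow each gene's own spread less. Without WT replicate 1 the adjusted p by edgeR was 0.0182 for Myog and 0.0458 for Ttn. With DESeq2 it was 0.0592 for Myog, 0.241 for Actc1 and 0.153 for Ttn. Their log2 fold changes were -2.91, -1.57 and -1.57 in the main fit, and -2.10, -0.96 and -0.665 without WT replicate 2. Anxa1 and Dysf, which act in membrane repair, had log2 fold changes of -0.42 (adjusted p = 0.881) and 0.36 (adjusted p = 0.918 by edgeR), and of -0.02 and 0.04 without WT replicate 1.

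**Figure D4:**
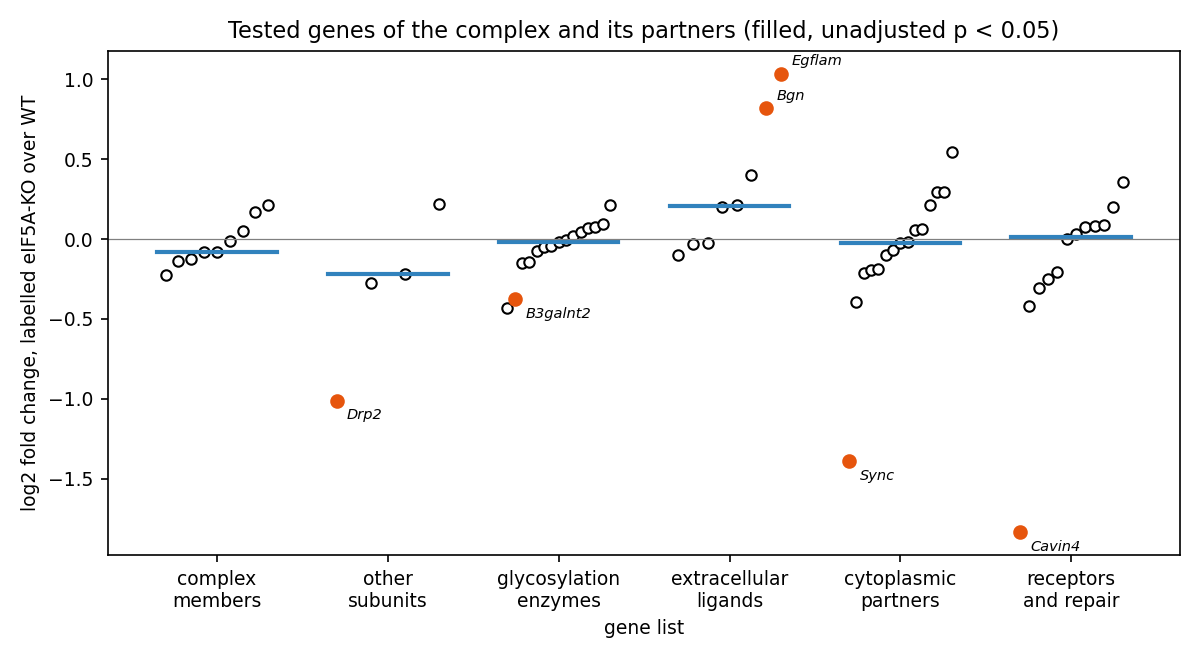
Log2 fold change (y axis, labelled eIF5A-KO over WT) of tested genes of the complex and of 5 lists of partners (x axis), with the median of the whole list as a blue line and genes with an unadjusted p under 0.05 filled and named. A few genes of the lists are not reported here and are not drawn. The 9 complex genes lie between -0.22 and 0.21 with none filled, and Cavin4 at -1.84, Sync at -1.39, Drp2 at -1.01 and Egflam at 1.04 lie farthest from 0.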

How the data were processed

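Total RNA of 6 libraries was sequenced from NEBNext Ultra libraries, and per the labels and methods the reads were mapped to mm10 with HISAT. The authors deposited read counts per gene, without normalization, and a second table of FPKM. The methods name DEGSeq2 for read coverage, while the counting rule, the annotation and use of strand are not given in the sources used here. The FPKM denominators were, per library, the geometric mean of the 6 count totals times a median-of-ratios size factor. Gene coordinates were the same as in GENCODE M21 for 98.3% of 54409 identifiers found in it.

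The complex genes and all lists were chosen with earlier results of these data known. Counts were tested with edgeR 4.0.16 in R 4.3.3 (filterByExpr defaults, TMM factors, quasi-likelihood test, two-sided, prior count 2, Benjamini-Hochberg adjustment over all 14679 tested genes). The biological coefficient of variation was 0.239. Standard errors were obtained from the fold change and its F statistic. Levels between genes were compared in FPKM only. Named genes were every complex gene, and of each other list those with an adjusted p under 0.05 and the 3 with the largest absolute log2 fold change at a mean of at least 5 CPM, except that some genes of the partner lists are not reported here. Alternatives were other scaling factors and filters, DESeq2 1.42.0, limma-voom and limma 3.58.1 on log2(FPKM + 1) or log2(FPKM + 0.1), the replicate number as a block, leaving out each library and, chosen after seeing the data, taking out the length trend. Similar genes were sought with blastn 2.17.0. The scripts were tested on simulated data in which 200 of 14679 genes were changed. At an adjusted p under 0.05, edgeR called 84 of 100 genes with a log2 change of 2. It called 37 of 100 genes with a log2 change of 1, and 14 unchanged genes. Intervals are 95%. At most 1.37% of genes had the same count in any pair of libraries.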

Additional observations from a re-analysis of the deposited data

How the results depend on the processing

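Over 17 alternative fits, 153 values of the complex genes were computed: 128 kept their direction, 25 reversed, and 0 passed an adjusted p under 0.05 (lowest 0.566). Leaving out one library at a time, the log2 fold change ranged from -0.38 to 0.534 for Utrn, -0.316 to 0.37 for Dag1, -0.404 to 0.35 for Sgca, -0.07 to 0.035 for Sgcb, -0.355 to 0.232 for Sgcd, -0.432 to 0.21 for Sntb1, -0.294 to 0.037 for Dtna, -0.004 to 0.399 for Lama4, -0.66 to 0.255 for Lum and -0.558 to 0.073 for Dpt. Dmd (0.047 to 0.479) and Sgce (0.08 to 0.244) kept their sign. The log2 ratio difference ranged from -0.04 to 0.379 for Dmd to Utrn and from -0.593 to 0.204 for Sgca to Sgce. Utrn was at 0.055 with limma-voom, 0.037 and 0.064 with limma on log2 FPKM (pseudocounts 1 and 0.1) and 0.068 without the length trend. Dag1 was at 0.024, 0.024 and 0.026 in the first 3 of these. Sgca was at -0.008 with library size alone, -0.009 with limma-voom and -0.034 without the length trend. The cause was not tested.

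At an adjusted p under 0.05 the fit called 3 genes over the whole table, 1 higher and 2 lower. These became 0 and 0 with DESeq2 size factors, with library size alone, with at least 10 counts in every library and with each limma fit, 65 and 184 with no filter, 19 and 69 with DESeq2, and 2 and 7 without the length trend. Leaving out a library gave 0 to 8 higher and 0 to 48 lower, the most without WT replicate 1. The fit with no filter drew standard errors of genes together (Myog from 0.635 to 0.25, Sgcb from 0.156 to 0.221). Its p-values thus follow each gene's own spread between libraries less than those of the main fit. With no filter 1 gene each was called among other subunits (Drp2), ligands (Bgn), cytoplasmic partners (Sync) and receptors and repair (Cavin4), with DESeq2 1 ligand (Bgn) and 1 of receptors and repair (Cavin4), and other subunits ranged from 0 to 1 on leaving out a library (Drp2 without WT replicate 1).

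Libraries of the groups share replicate numbers, but same-numbered libraries did not deviate together (correlations 0.08, -0.16 and 0.11). With the replicate number as a block, 7 genes were higher and 17 lower, and Utrn was at 0.068, Dag1 at 0.018 and Sgca at -0.003, with no complex gene called. The adjusted p of Myog by edgeR went from 0.362 to 0.0331 with the block. Counting alone gives Sgcd an SD of 13.2% and Sntb1 14% per library, which limits what can be said of these genes.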

Other observations

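Sgca and the muscle intermediate filament gene Des had a like order of libraries. Des stood at 196.7, 430.3 and 310.3 CPM in WT and at 439.0, 295.8 and 188.7 CPM in the labelled eIF5A-KO libraries, with labelled replicate 1 highest as for Sgca. Pearson's r of log2 CPM between Sgca and Des was 0.97 (Spearman's rho = 0.94, n = 6 libraries, and r = 0.97 without labelled replicate 1 and WT replicate 2). Cav3 (caveolin-3, of muscle caveolae) stood at 3.81, 8.01 and 4.78 CPM and at 7.16, 3.43 and 2.04 CPM. Between Sgca and Cav3 r was 0.89 (rho = 0.77), and 0.66 without the same libraries. The order of Drp2 was like those of Myog and of the satellite cell gene Pax7, which stood at 12.9, 51.7 and 25.2 CPM in WT and 13.0, 8.29 and 10.6 CPM in the labelled libraries. Between Drp2 and Pax7 r was 0.99 (rho = 0.94), and 0.76 without WT replicates 2 and 3. Drp2 was about as close to Myog, a gene of differentiating muscle (r = 0.91, rho = 0.94, and 0.75 without the same libraries). Dmd and Pax7 were less alike (r = 0.24, rho = 0.26, and 0.79 without WT replicates 1 and 3), as were Dmd and Myog (r = -0.08, rho = -0.03, and 0.51 without the same libraries). These 6 pairs were chosen after their values were seen, and no test was made.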
